A study of Mus musculus with 9 samples.

Results

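The Wnt ligands, their receptors and the secreted proteins that modulate them were examined in bulk RNA sequencing of BALB/c mouse tissue labelled aPVT, the anterior part of a midline nucleus of the thalamus named paraventricular. The members were all rows of the read count table whose symbol begins with Wnt, Fzd, Sfrp, Rspo or Dkk followed by a digit, together with named co-receptors, receptors and modulators. The rule reads symbols, but it was chosen with earlier results of these data known. The shares of members called below are therefore not an independent test. The members came to 42 of 18956 rows, and all 42 passed the filter on low counts. There were 12 Wnt ligands, 10 Frizzled receptors, the co-receptor Lrp6, 3 R-spondins, 5 genes of the R-spondin receptor axis, 9 secreted antagonists, the feedback gene Axin2 and Fzd10os. Fzd10os is an opposite-strand transcript that its symbol alone places in the set. Genes that the rule names but that have no row, such as Lrp5, were not analysed here.

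The 9 libraries formed 3 groups of 3. The first group was exposed to 5 days of social defeat stress and given (2S,6S)-HNK, a hydroxynorketamine formed in the body from ketamine and written SHNK below. The second was exposed to the same stress and given saline, and the third was not stressed and was given saline. Social defeat places a mouse with an aggressive one. All groups were BALB/c, and the labels give neither a dose nor an age. Whether replicate libraries are separate animals is not stated either, so the p-values reflect only the spread among libraries, which may be technical.

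Wnt proteins are secreted, lipid-modified ligands that bind Frizzled receptors. With the co-receptors Lrp5 or Lrp6 they stabilise β-catenin, which acts with TCF and LEF factors on target genes, and other Wnts signal through Frizzled or Ror receptors without it. R-spondins bind Lgr receptors and keep the ubiquitin ligases Znrf3 and Rnf43 from removing Frizzled from the cell surface. Wif1 and the Sfrp proteins bind Wnts outside the cell, and most Dkk proteins block Lrp5 and Lrp6. In the adult thalamus and the neighbouring habenula the pathway is best known through Tcf7l2, a TCF factor that thalamic neurons keep expressing.

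Wif1, Rspo4 and Fzd7 were the 3 members that passed the test in both comparisons with stressed saline libraries, and their upstream sequences are shown for that reason. That of Wnt11 is added because it was the 1 member lower in SHNK libraries with a TCF/LEF core in a window, of 7 such members with a RefSeq window. Wnt11 also has a RefSeq window at chr7:98838595-98838844, which is not shown and holds no copy of the core. The sequences are from RefSeq on GRCm38.p6, run 5′ to 3′ and cover the 250 bases before a start of the gene in RefSeq. GENCODE, which gives the gene coordinates below, begins Wif1 earlier, so that sequence is cut to 206 bases, and begins Fzd7 further downstream, so that window does not adjoin its coordinates. Capitals mark the core TCAAAG, searched with its reverse complement CTTTGA, and the motifs do not overlap.
Wif1 (chr10:121033754-121033959, + strand): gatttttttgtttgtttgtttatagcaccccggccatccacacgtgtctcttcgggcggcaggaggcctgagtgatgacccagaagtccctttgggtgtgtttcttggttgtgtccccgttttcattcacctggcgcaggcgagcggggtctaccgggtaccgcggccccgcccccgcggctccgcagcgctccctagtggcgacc
Rspo4 (chr2:151842677-151842926, + strand): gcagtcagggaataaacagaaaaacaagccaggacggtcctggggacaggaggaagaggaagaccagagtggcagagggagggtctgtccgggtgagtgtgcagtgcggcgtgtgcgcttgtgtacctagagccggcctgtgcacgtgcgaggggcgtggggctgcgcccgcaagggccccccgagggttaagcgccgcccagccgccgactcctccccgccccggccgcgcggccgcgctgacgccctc
Fzd7 (chr1:59481897-59482146, + strand): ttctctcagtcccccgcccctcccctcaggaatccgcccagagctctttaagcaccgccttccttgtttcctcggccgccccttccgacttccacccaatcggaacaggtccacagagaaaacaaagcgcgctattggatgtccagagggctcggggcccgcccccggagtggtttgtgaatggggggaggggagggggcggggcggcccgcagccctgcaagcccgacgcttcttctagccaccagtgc
Wnt11 (chr7:98834862-98835111, + strand): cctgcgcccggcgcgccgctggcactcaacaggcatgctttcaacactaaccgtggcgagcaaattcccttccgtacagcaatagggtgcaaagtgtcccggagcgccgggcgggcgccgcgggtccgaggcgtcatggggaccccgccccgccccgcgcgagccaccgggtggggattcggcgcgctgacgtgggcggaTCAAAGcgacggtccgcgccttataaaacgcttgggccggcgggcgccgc

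RefSeq gave 31 windows for 27 of the 42 members. The core was present in 4 of these 31 windows (12.9%) and in 13.8% of 32851 windows of all genes. The median GC content was 65.2% over member windows and 52.4% over all windows. The Wif1, Rspo4 and Fzd7 sequences hold no copy of the core, and the copy in Wnt11 is a match of letters, not a measured site.

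Total counts ran from 32307869 to 51569143 per library, and 18194 genes were tested. All 7 listed markers of midline thalamus had a row, at levels from high to low. The lowest count of any row is 1, so having reads in every library does not set these markers apart. Calb2, a calcium-binding protein abundant in midline thalamus, was at 1693 to 2407 CPM (the count scaled to a fixed library total), and Slc17a6, the vesicular glutamate transporter of thalamic neurons, at 483 to 711 CPM. The dopamine receptor Drd2 was at 3.92 to 7.65 CPM, and Drd3 was the lowest of the 7, at 0.326 CPM in its lowest library. Markers of the habenula, which borders this nucleus, differed between the groups. Their sum over 13 of 15 listed genes was 84.5 to 102.6 CPM in SHNK, 314.8 to 907 CPM in stressed saline and 119.5 to 186 CPM in non-stressed saline libraries. Pou4f1 was the lowest of the 13, at 0.0398 CPM in a SHNK library, and the listed Chrnb3 and Chrnb4 had no row. The sum over 15 genes of ependyma, the lining of the ventricle, was 121 to 186 CPM in SHNK, 213 to 321 CPM in stressed saline and 112 to 134 CPM in non-stressed saline libraries. In bulk tissue, fewer cells of a type and less RNA per cell cannot be told apart.

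Levels of the members are given as CPM per kb of exon, which allows genes to be compared. Averaged over the 9 libraries, the R-spondin Rspo1 was the highest member at 26.5 CPM per kb. The ligands Wnt3 at 20.4 and Wnt4 at 13.0 CPM per kb came next. The receptor Fzd9, at 9.95 CPM per kb, was the highest of the Frizzled receptors. Sfrp5 at 7.53 CPM per kb led the antagonists, ahead of Dkk3 at 6.71 and Sfrp2 at 6.51 CPM per kb. In the stressed saline libraries alone the order differed, with Dkk3 at 8.18, Wif1 at 7.69 and Sfrp5 at 7.36 CPM per kb. Wif1 averaged 4.22 CPM per kb and Rspo4 0.86 CPM per kb. The lowest members were the receptors Fzd5 at 0.057 and Lgr5 at 0.113 CPM per kb and the antagonist Dkk2 at 0.116 CPM per kb.

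**Figure D1:**
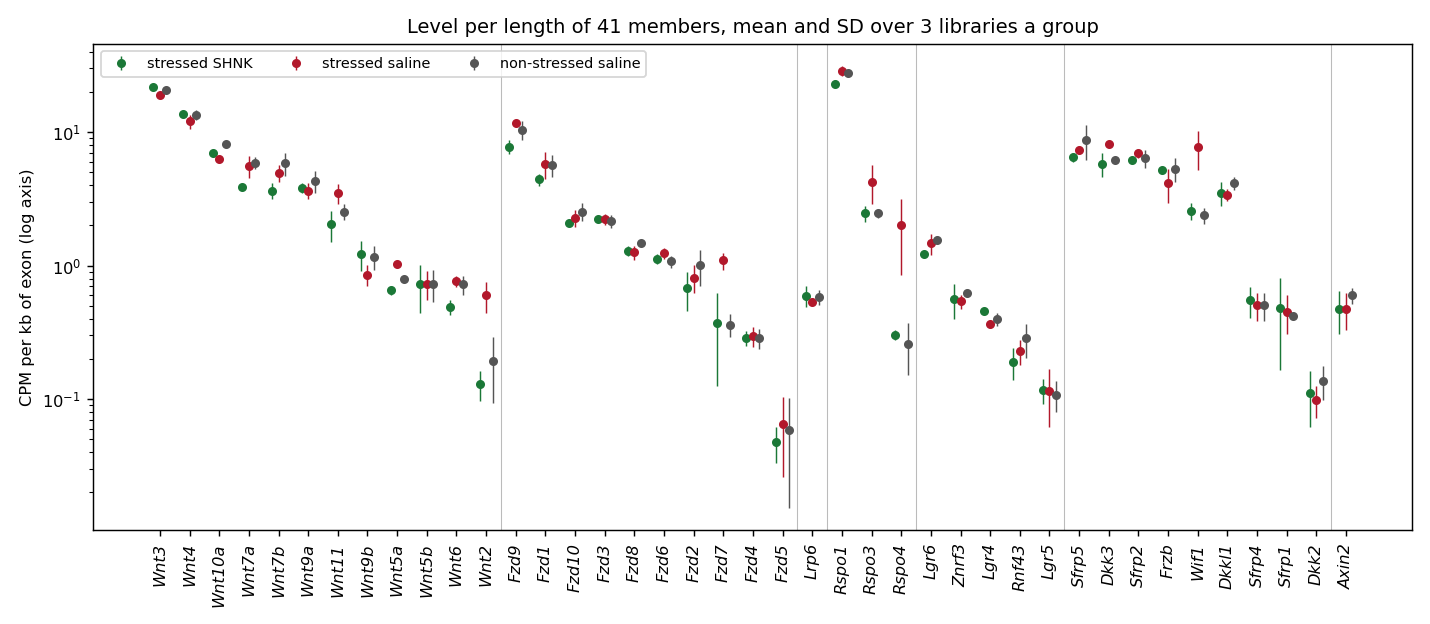
Level of 41 members in CPM per kb of exon (log axis) by class, with the mean and SD of 3 libraries for SHNK, stressed saline and non-stressed saline. Rspo1, Wnt3 and Wnt4 were highest, Fzd5, Lgr5 and Dkk2 were lowest, and Fzd10os has no matched exon length.

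Stressed saline against non-stressed saline asked how social defeat changed these transcripts. Of the 42 members, 3 (7.14%) rose and 0 fell in edgeR's quasi-likelihood test (Benjamini-Hochberg adjusted p under 0.05 over all tested genes). Of all tested genes 1.17% were called in this comparison, and 1.15% were called higher. The 3 were the antagonist Wif1, the R-spondin Rspo4 and the receptor Fzd7. The members' median log2 fold change was -0.037, beside -0.017 over all genes, and 21 members lay above 0 and 21 below. The groups did not overlap for 8 members higher and 2 lower, beside 12.9% of all tested genes in either direction. DESeq2 called 6 members, adding Rspo3, Wnt2 and, lower, Wnt10a, beside 2.65% of all genes.

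SHNK against stressed saline asked how the drug changed them in stressed animals, and it shares the stressed saline libraries with the comparison above. In the same test 10 of 42 members (23.8%) fell and 0 rose, where 6.41% of all tested genes were called and 3.96% were called lower. The 10 were Wif1, Rspo4, Rspo3, Fzd7, Fzd9, Dkk3, Wnt2, Wnt5a, Wnt7a and Wnt11, so every class with more than 1 protein-coding member but the R-spondin receptor axis was represented. The members' median log2 fold change was -0.13, beside -0.0091 over all genes. The groups did not overlap for 14 members lower and 3 higher, beside 30.4% of all tested genes in either direction. DESeq2 called 11, all lower, adding Rspo1 and Wnt7b and giving Wnt2 no adjusted p, beside 12.8% of all genes. The count of 10 was 4 without SHNK replicate 2, 2 without SHNK replicate 3, 5 without stressed saline replicate 2 and 6 without stressed saline replicate 3. Calls over all genes moved too, from 1167 to 238, 176, 367 and 718 in these 4 fits.

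SHNK against non-stressed saline asked how far treated stressed animals stood from unstressed ones. In edgeR's quasi-likelihood test 0 of 42 members were called, as was 0.0055% of all genes, which is 1 gene. Without non-stressed saline replicate 2 it called 2 members and 749 of all genes. At an unadjusted p under 0.05 there were 8 members (19%), all lower in SHNK, beside 18.3% of all genes in either direction. The share of all genes lower at that threshold is not given here. DESeq2 called 3 members, Wnt7a, Wnt7b and Fzd9, beside 7.5% of all genes. An F test across all 3 groups called 9 members (21.4%), beside 4.88% of all genes. Its calls were Wif1, Rspo4, Rspo3, Fzd7, Fzd9, Wnt2, Wnt5a, Wnt7a and Wnt7b. The count was 4 without SHNK replicate 2 (287 of all genes called, against 888 with every library), 3 without SHNK replicate 3 (201), 3 without stressed saline replicate 2 (187) and 4 without stressed saline replicate 3 (508).

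**Figure D2:**
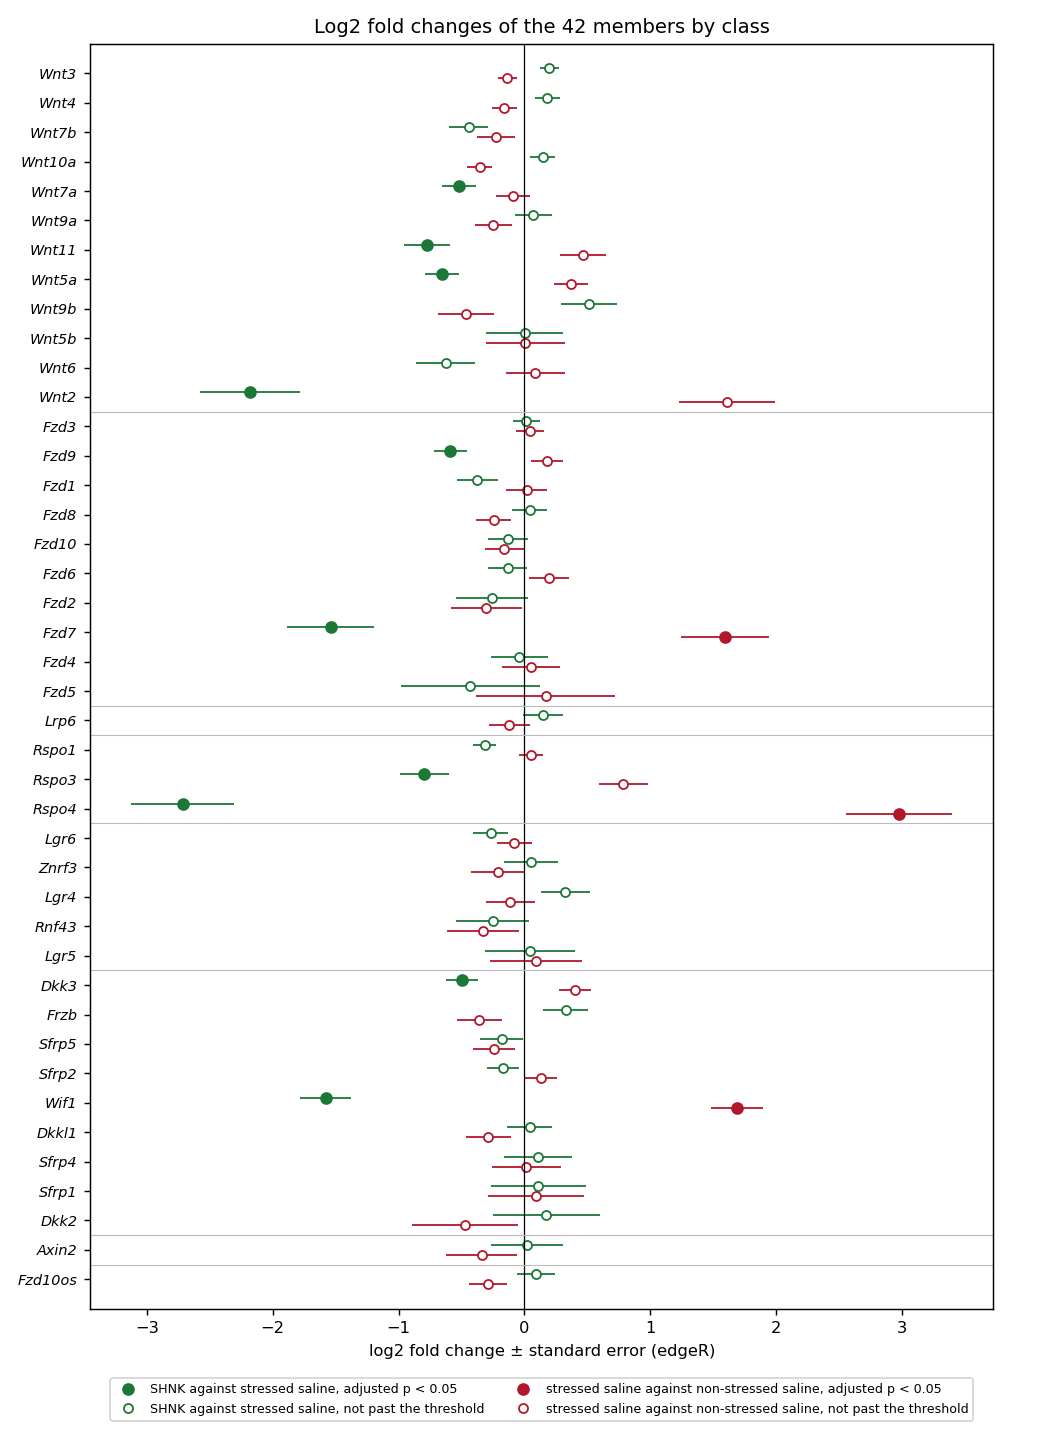
Log2 fold change with its standard error of each of the 42 members, by class, for SHNK against stressed saline and stressed saline against non-stressed saline. Filled points passed an adjusted p of 0.05: 10 members in the first comparison, all below 0, and 3 in the second, all above 0.

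Among the secreted antagonists, Wif1, which binds Wnts outside the cell, lies on chromosome 10 from 121033960 to 121100650. It was at 6.79, 5.23 and 6.76 CPM in SHNK libraries, at 14.9, 25.7 and 15.4 CPM in stressed saline libraries and at 6.36, 4.92 and 6.06 CPM in non-stressed saline libraries. Every stressed saline library was above all 6 others, and the SHNK and non-stressed saline ranges overlapped. Wif1 rose 3.22-fold in stressed saline against non-stressed saline (log2 fold change 1.69 ± 0.20, standard error; edgeR adjusted p = 0.00300). It fell in SHNK against stressed saline, with a log2 fold change of -1.58 ± 0.20 (edgeR adjusted p = 0.000994). Both calls held whichever of the 9 libraries was left out, with a highest edgeR adjusted p of 0.0402 and 0.00982. Between SHNK and non-stressed saline the log2 difference was 0.11 ± 0.21 (edgeR adjusted p = 0.825).

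Dkk3, a divergent Dickkopf protein, was the most abundant antagonist by CPM. It was at 24.0, 17.1 and 17.2 CPM in SHNK libraries, at 28.6, 27.2 and 26.6 CPM in stressed saline libraries and at 21.2, 21.7 and 19.5 CPM in non-stressed saline libraries. The stressed saline libraries were the highest, and the other groups overlapped. Dkk3 fell in SHNK against stressed saline by 0.50 ± 0.13 on the log2 scale (edgeR adjusted p = 0.0346), and its stressed saline against non-stressed saline value was 0.40 ± 0.13 (adjusted p = 0.200). The call was lost in 5 of the 9 fits that left out 1 library, without SHNK replicate 2 (adjusted p = 0.155) or 3 (0.173) and without stressed saline replicate 1 (0.102), 2 (0.0886) or 3 (0.0633). The other 7 antagonists, Dkk2, Dkkl1, Frzb, Sfrp1, Sfrp2, Sfrp4 and Sfrp5, were not called in any comparison. Frzb, a Wnt-binding protein related to the Sfrp group, had the smallest adjusted p of the 7 in SHNK against stressed saline (0.33 ± 0.18, edgeR adjusted p = 0.296).

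The R-spondins are ligands that strengthen Wnt signalling by way of the Lgr receptors. Rspo4, known in humans for its role in nail development, lies on chromosome 2 from 151842927 to 151874668. It was at 0.778, 0.736 and 0.652 CPM in SHNK libraries, at 2.08, 7.60 and 4.65 CPM in stressed saline libraries and at 0.526, 0.908 and 0.417 CPM in non-stressed saline libraries. Every stressed saline library was above all others although those 3 differed more among themselves than the libraries of the other groups. The values rested on 24 to 37 reads in SHNK, 98 to 355 in stressed saline and 17 to 29 in non-stressed saline libraries.

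Rspo4 had the highest fold change of the 42 members in both directions. It rose 7.87-fold in stressed saline against non-stressed saline (log2 fold change 2.98 ± 0.42, edgeR adjusted p = 0.00655). It fell in SHNK against stressed saline, with a log2 fold change of -2.72 ± 0.41 (edgeR adjusted p = 0.00347). Both calls again held whichever of the 9 libraries was left out, with a highest edgeR adjusted p of 0.0466 and 0.0345. Without stressed saline replicate 2, the library with the most Rspo4, the log2 fold changes were 2.46 and -2.20. Between SHNK and non-stressed saline the log2 difference was 0.26 ± 0.46 (adjusted p = 0.808).

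Rspo3, needed for vessel development in mouse embryos, was at 8.31, 6.40 and 8.09 CPM in SHNK libraries, at 11.5, 18.0 and 10.02 CPM in stressed saline libraries and at 7.34, 7.23 and 8.37 CPM in non-stressed saline libraries. Stressed saline libraries were the highest again. Rspo3 fell in SHNK against stressed saline by 0.80 ± 0.19 on the log2 scale (edgeR adjusted p = 0.0291), while stressed saline against non-stressed saline gave 0.78 ± 0.19 (adjusted p = 0.0762). The SHNK call was lost without SHNK replicate 2 (adjusted p = 0.132) or 3 (0.105) and without stressed saline replicate 2 (0.120), and stressed saline against non-stressed saline passed without stressed saline replicate 3 (0.0380). Rspo1, the most abundant R-spondin, was at 47.2, 42.002 and 45.1 CPM in SHNK, 60.4, 55.9 and 50.9 CPM in stressed saline and 55.7, 56.6 and 49.1 CPM in non-stressed saline libraries. SHNK libraries were the lowest without overlap, but neither difference of SHNK passed in edgeR (adjusted p = 0.0614 against stressed saline and 0.159 against non-stressed saline), and DESeq2 called that against stressed saline (adjusted p = 0.0257).

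Of the receptors, Fzd7, which passes both β-catenin and other Wnt signals, lies on chromosome 1 from 59482424 to 59486955. It was at 2.99, 0.974 and 1.11 CPM in SHNK libraries, at 4.12, 5.40 and 5.35 CPM in stressed saline libraries and at 1.89, 1.75 and 1.28 CPM in non-stressed saline libraries. All stressed saline libraries were above the other 6, and SHNK replicate 1 stood apart from the other SHNK libraries. Fzd7 rose 3.02-fold in stressed saline against non-stressed saline (log2 fold change 1.59 ± 0.35, edgeR adjusted p = 0.0412) and fell in SHNK against stressed saline (-1.54 ± 0.35, adjusted p = 0.0202).

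The Fzd7 calls depended on single libraries. The call of stressed saline against non-stressed saline was lost in 6 of the 9 fits that left out 1 library, without SHNK replicate 3 (edgeR adjusted p = 0.0501), stressed saline replicate 2 (0.179) or 3 (0.108) and non-stressed saline replicate 1 (0.107), 2 (0.123) or 3 (0.136). The call of SHNK against stressed saline was lost without SHNK replicate 2 (0.0903) or 3 (0.113) and without stressed saline replicate 2 (0.0689) or 3 (0.0517). The log2 fold change kept its direction in all of these fits.

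Fzd9, a receptor whose loss alters the hippocampus in mice, was at 17.8, 20.1 and 15.6 CPM in SHNK libraries, at 26.8, 25.6 and 28.2 CPM in stressed saline libraries and at 20.2, 23.1 and 27.8 CPM in non-stressed saline libraries. SHNK libraries were below all of the others, and the saline groups overlapped. Fzd9 fell in SHNK against stressed saline by 0.59 ± 0.13 on the log2 scale (edgeR adjusted p = 0.0176), a call lost without SHNK replicate 3 (adjusted p = 0.105) or stressed saline replicate 3 (0.0517). Stressed saline against non-stressed saline gave 0.18 ± 0.13 (adjusted p = 0.800).

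Fzd3, a receptor known for guiding axons, was the most abundant Frizzled by CPM, with 30.3, 27.7 and 28.3 CPM in SHNK, 30.7, 29.4 and 25.3 CPM in stressed saline and 31.0, 26.5 and 25.3 CPM in non-stressed saline libraries. Its ranges overlapped in all pairs, and its log2 fold changes were 0.01 ± 0.11 in SHNK against stressed saline (edgeR adjusted p = 0.955) and 0.04 ± 0.11 in stressed saline against non-stressed saline (0.982). The co-receptor Lrp6 was at 9.23, 8.65 and 6.46 CPM in SHNK, 7.39, 6.87 and 7.74 CPM in stressed saline and 8.02, 8.96 and 6.94 CPM in non-stressed saline libraries, and was not called. The remaining 7 Frizzled receptors, among which Fzd1 came closest (-0.38 ± 0.16 in SHNK against stressed saline, edgeR adjusted p = 0.180), and the 5 genes of the R-spondin receptor axis were not called in any comparison. Lgr6, the most abundant of those 5 by CPM, was at 8.14, 8.49 and 8.53 CPM in SHNK, 12.2, 9.17 and 8.95 CPM in stressed saline and 10.6, 11.5 and 10.1 CPM in non-stressed saline libraries.

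**Figure D3:**
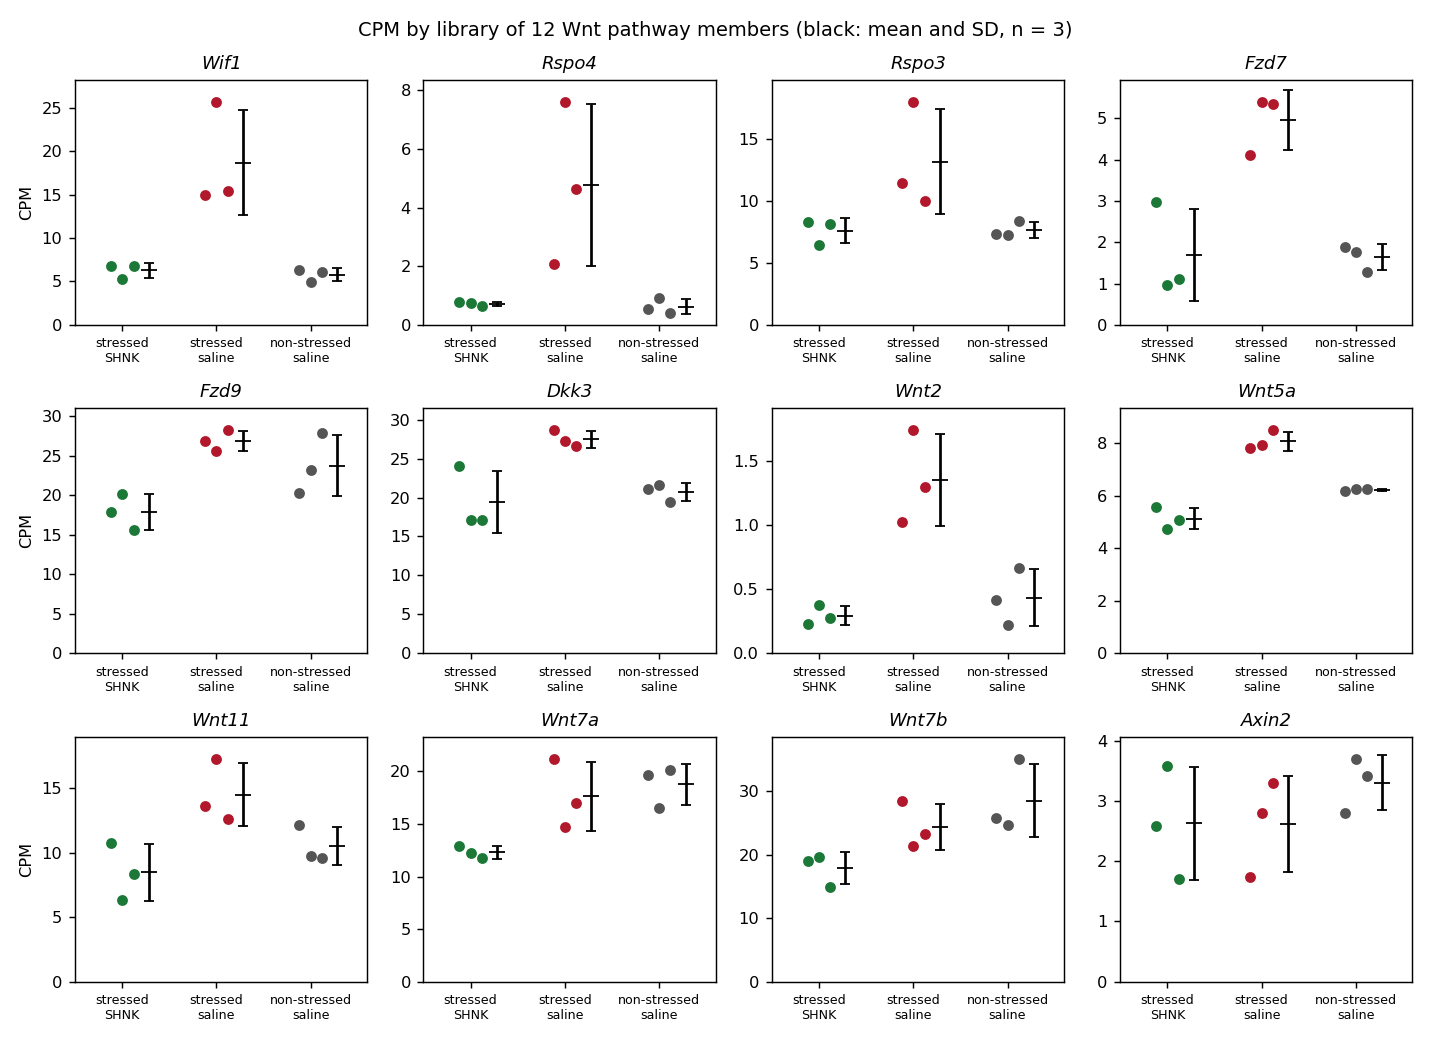
CPM in each library for 12 members (points; black bars are mean and SD, n = 3), with SHNK left, stressed saline in the middle and non-stressed saline right. Stressed saline libraries lie above both other groups for Wif1, Rspo4, Rspo3, Fzd7, Dkk3, Wnt2, Wnt5a and Wnt11. SHNK libraries lie below both other groups for Fzd9, Wnt7a and Wnt7b, and also for Wnt5a.

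Of the 12 Wnt ligands, edgeR called 4 lower and 0 higher in SHNK against stressed saline, where 6.41% of all genes were called. In stressed saline against non-stressed saline it called 0 of the 12, with 1.17% of all genes called, and DESeq2 called Wnt2 and Wnt10a, with 2.65% of all genes called. Wnt2, a ligand of the β-catenin branch, was at 0.231, 0.378 and 0.272 CPM in SHNK libraries, at 1.02, 1.73 and 1.30 CPM in stressed saline libraries and at 0.417, 0.219 and 0.662 CPM in non-stressed saline libraries. Each stressed saline library was above the other 6. These values rested on 10 to 19 reads in SHNK, 46 to 81 in stressed saline and 7 to 27 in non-stressed saline libraries. Wnt2 fell by 2.18 ± 0.39 on the log2 scale in SHNK against stressed saline (edgeR adjusted p = 0.00807), a call that missed the threshold without SHNK replicate 3 (0.0534). Stressed saline against non-stressed saline gave 1.61 ± 0.38 (adjusted p = 0.0603), and passed without stressed saline replicate 1 (0.0484) or non-stressed saline replicate 3 (0.0384).

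Wnt5a and Wnt11 are ligands best known for signalling without β-catenin. Wnt5a was at 5.55, 4.73 and 5.08 CPM in SHNK libraries, at 7.79, 7.92 and 8.47 CPM in stressed saline libraries and at 6.18, 6.26 and 6.23 CPM in non-stressed saline libraries. The 3 groups did not overlap, with SHNK lowest and stressed saline highest. Wnt5a fell by 0.65 ± 0.14 on the log2 scale in SHNK against stressed saline (edgeR adjusted p = 0.0151). The call was lost without SHNK replicate 2 (0.0872) or 3 (0.0760) and without stressed saline replicate 2 (0.0505). Wnt11 was at 10.8, 6.34 and 8.31 CPM in SHNK libraries, at 13.6, 17.2 and 12.6 CPM in stressed saline libraries and at 12.2, 9.74 and 9.59 CPM in non-stressed saline libraries, so stressed saline libraries were again highest. It fell by 0.77 ± 0.18 on the log2 scale in SHNK against stressed saline (edgeR adjusted p = 0.0265), a call lost without SHNK replicate 2 (0.118) or 3 (0.117) and without stressed saline replicate 2 (0.109).

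Wnt7a and Wnt7b are ligands that the brain's vessels need to form the blood-brain barrier. Wnt7a was at 12.9, 12.2 and 11.7 CPM in SHNK libraries, at 21.2, 14.7 and 17.0 CPM in stressed saline libraries and at 19.7, 16.5 and 20.1 CPM in non-stressed saline libraries. SHNK libraries were below all of the saline libraries. Wnt7a fell by 0.52 ± 0.14 on the log2 scale in SHNK against stressed saline (edgeR adjusted p = 0.0401), a call lost without SHNK replicate 1 (0.0530), 2 (0.131) or 3 (0.168) and without stressed saline replicate 1 (0.163) or 3 (0.0692). SHNK against non-stressed saline gave -0.61 ± 0.14 (adjusted p = 0.0795).

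Wnt7b was at 18.9, 19.7 and 14.99 CPM in SHNK libraries, at 28.4, 21.5 and 23.2 CPM in stressed saline libraries and at 25.8, 24.7 and 35.1 CPM in non-stressed saline libraries. It followed the pattern of Wnt7a, with SHNK libraries lowest. The log2 fold changes were -0.44 ± 0.15 for SHNK against stressed saline and -0.67 ± 0.15 for SHNK against non-stressed saline (edgeR adjusted p = 0.0992 and 0.0818; DESeq2 0.0460 and 0.00322), and the F test across all 3 groups gave 0.0483. Wnt7a and Wnt7b both passed in SHNK against non-stressed saline without non-stressed saline replicate 2 (edgeR adjusted p = 0.0301 and 0.0316). Markers of oligodendrocyte precursors, 5 genes, summed to 229 to 248 CPM in SHNK, 278 to 321 CPM in stressed saline and 286 to 356 CPM in non-stressed saline libraries, and 10 astrocyte markers summed to 3643 to 3967 CPM in SHNK, 4037 to 5260 CPM in stressed saline and 4657 to 4894 CPM in non-stressed saline libraries. Both sums were lowest in SHNK libraries without overlap, as Wnt7a and Wnt7b were, and their part in these values was not tested.

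Wnt3, a ligand of the β-catenin branch and the most abundant of the 12 by CPM, was at 64.6, 68.9 and 66.2 CPM in SHNK libraries, at 59.9, 55.8 and 58.7 CPM in stressed saline libraries and at 64.2, 64.6 and 63.0 CPM in non-stressed saline libraries. Stressed saline libraries were the lowest and the other groups nearly touched. The log2 fold changes were 0.20 ± 0.08 in SHNK against stressed saline and -0.14 ± 0.08 in stressed saline against non-stressed saline (edgeR adjusted p = 0.140 and 0.661). The other 6 ligands, Wnt4, Wnt5b, Wnt6, Wnt9a, Wnt9b and Wnt10a, were not called by edgeR in any comparison. Among them Wnt10a had the smallest adjusted p in stressed saline against non-stressed saline (-0.36 ± 0.10, edgeR adjusted p = 0.131), where DESeq2 called it (adjusted p = 0.0470).

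Axin2, a β-catenin target that also restrains the pathway, was at 2.59, 3.58 and 1.71 CPM in SHNK libraries, at 1.74, 2.81 and 3.29 CPM in stressed saline libraries and at 2.81, 3.70 and 3.41 CPM in non-stressed saline libraries. Its ranges overlapped in all pairs of groups. The log2 fold changes were 0.02 ± 0.28 for SHNK against stressed saline and -0.34 ± 0.28 for stressed saline against non-stressed saline (edgeR adjusted p = 0.973 and 0.860). Fzd10os was at 11.4, 14.2 and 13.1 CPM in SHNK, 10.6, 12.9 and 12.8 CPM in stressed saline and 12.3, 18.2 and 13.9 CPM in non-stressed saline libraries and was not called. Strandedness of the counting is not given, so reads of Fzd10os and of Fzd10 may not be separable.

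The members with the highest fold changes were highest in stressed saline libraries, as were the habenula and ependyma marker sums. Between SHNK and non-stressed saline, the habenula sum was lower in SHNK libraries without overlap. The ranges of Rspo4, Wif1 and the ependyma sum overlapped there. Within non-stressed saline, replicate 3 had the highest habenula sum at 186 CPM and the lowest Rspo4 at 0.417 CPM. That Rspo4 value rested on 17 reads, beside 24 and 29 in replicates 1 and 2. Tac2, the precursor of neurokinin B and a habenula marker, was at 0.652, 0.656 and 0.217 CPM in SHNK, 38.6, 155 and 83.7 CPM in stressed saline and 4.41, 7.83 and 20.8 CPM in non-stressed saline libraries. Within stressed saline, replicate 2 had the highest sum of habenula markers at 907 CPM, of ependyma markers at 321 CPM, of Rspo4, of Wif1 and of Rspo3, while replicate 1 was lowest for Rspo4, Wif1 and both marker sums. The sum over 11 choroid plexus markers was 66.7 to 98.2 CPM in SHNK, 67.1 to 100.2 CPM in stressed saline and 49.8 to 60.6 CPM in non-stressed saline libraries. Ranges overlapped for some lists. The sum for endothelium, over 9 genes, was at 326 to 362 CPM in SHNK, 320 to 356 CPM in stressed saline and 317 to 408 CPM in non-stressed saline libraries. Microglia, over 6 genes, were at 145 to 152 CPM in SHNK, 144 to 157 CPM in stressed saline and 150 to 174 CPM in non-stressed saline libraries. Other thalamus, over 9 genes, was at 1881 to 2049 CPM in SHNK, 1284 to 1545 CPM in stressed saline and 1501 to 1853 CPM in non-stressed saline libraries. For this list SHNK libraries were above all others without overlap, and the saline groups overlapped. The part of these marker differences in the calls of the members was not tested.

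**Figure D4:**
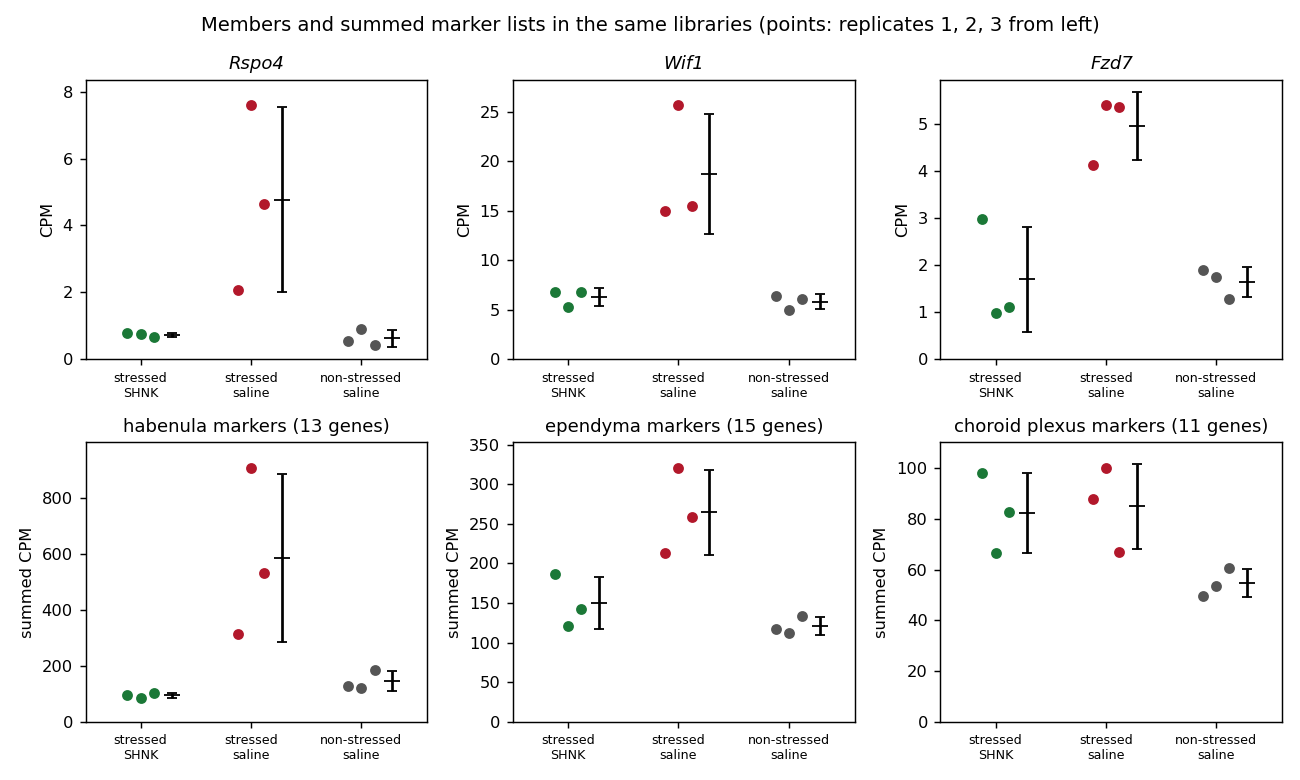
CPM of Rspo4, Wif1 and Fzd7 (upper row) and summed CPM of habenula, ependyma and choroid plexus markers (lower row) in the same libraries, with replicates 1, 2 and 3 from left in each group and black bars for mean and SD (n = 3). Stressed saline replicate 2 is highest for Rspo4, Wif1, the habenula sum and the ependyma sum.

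Further genes of the pathway came from a list of 61, of which 57 were in the table and tested. In stressed saline against non-stressed saline 2 of 57 (3.51%) rose and 0 fell, where 1.17% of all genes were called. Ror2, a receptor that binds Wnt5a, rose with a log2 fold change of 2.63 ± 0.59 (edgeR adjusted p = 0.0475), and Sostdc1, a secreted BMP and Wnt inhibitor, with 1.497 ± 0.32 (adjusted p = 0.0386). Ror2 was at 0.442, 0.0795 and 0.0543 CPM in SHNK, 1.23, 2.83 and 0.901 CPM in stressed saline and 0.351, 0.188 and 0.245 CPM in non-stressed saline libraries. Its SHNK values ran from near the floor to above every non-stressed saline library. DESeq2 gave Ror2 no adjusted p in SHNK against stressed saline. Sostdc1 was at 3.07, 2.51 and 3.48 CPM in SHNK and 3.25, 9.34 and 4.90 CPM in stressed saline libraries. In non-stressed saline libraries it was at 1.91, 1.72 and 2.55 CPM. Its SHNK and stressed saline ranges overlapped, and edgeR did not call it between them (adjusted p = 0.0851), while DESeq2 did (0.0216). With 1 library left out, the Sostdc1 rise was called in 3 of 9 fits and the Ror2 rise in 4. Leaving out SHNK replicate 3, stressed saline replicate 2 or any 1 of the 3 non-stressed saline libraries left 0 calls on the list, and leaving out stressed saline replicate 3 left 1. Calls over all genes were 40 to 180 in these 6 fits, against 213 with every library.

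In SHNK against stressed saline 1 gene of the list rose and 7 fell, which is 14% of 57, where 6.41% of all genes were called. The 4 with the smallest p all fell: Ror2 with a log2 fold change of -3.06 ± 0.60 (edgeR adjusted p = 0.0118), Kremen1, a receptor for Dkk proteins, with -0.95 ± 0.19 (0.0122), Celsr1, a cadherin of planar cell polarity, with -1.51 ± 0.33 (0.0187), and the TCF factor Tcf7l1 with -0.69 ± 0.16 (0.0236). The gene that rose was Lef1, a LEF factor that thalamic neurons express, at 58.3, 70.4 and 74.4 CPM in SHNK, 52.2, 50.6 and 51.7 CPM in stressed saline and 56.3, 55.4 and 69.4 CPM in non-stressed saline libraries (log2 fold change 0.39 ± 0.11, edgeR adjusted p = 0.0461). It was named after its values were seen, since it stands outside the naming rule. Its call was lost in 6 of the 9 fits with a library left out, without SHNK replicate 2 or 3, any 1 stressed saline library or non-stressed saline replicate 1. Leaving out SHNK replicate 2, SHNK replicate 3 or stressed saline replicate 2 left 0 calls on the list (238, 176 and 367 over all genes), and leaving out stressed saline replicate 1 left 4 (653 over all genes). In SHNK against non-stressed saline edgeR called 0 of 57, with 20 (35.1%) at an unadjusted p under 0.05, beside 18.3% of all genes. DESeq2 called 7, beside 7.5% of all genes, and without non-stressed saline replicate 2 edgeR called 5 of the 57 and 749 of all genes.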

How the data were processed

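Bulk RNA was sequenced from 9 libraries. Per the labels' protocols, RNA came from a Direct-zol kit and libraries from SMARTer Ultra low and TruSeq chemistry. Trimmomatic 0.38, HISAT2 and StringTie were used on GRCm38, per the submitters' processing notes. What each tool did, and strandedness, is not given in the sources used here. Read counts per gene symbol were deposited as whole numbers by the authors with no further normalization, and the lowest count is 1.

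Groups came from the labels. filterByExpr (minimum count 10, minimum total 15) kept 18194 of 18956 genes. TMM scaling was followed by 1 joint quasi-likelihood fit of the 3 groups (edgeR 4.0.16, R 4.3.3), with Benjamini-Hochberg adjustment over all tested genes and a threshold of 0.05. The common biological coefficient of variation was 0.132, and at these depths the spread between libraries limits precision except for the rarest members. CPM used TMM-scaled library sizes, and lengths and coordinates came from GENCODE vM21 (GRCm38), which matched 41 of the 42 members. Alternatives were DESeq2 1.42.0, other scalings, filters, thresholds and designs, and leaving out each library. Full values are given for members past 0.05 in any test, Axin2, Wif1, Rspo4 and the most abundant member of each class. Other pathway genes were named by smallest p, up to 4 per comparison. The members and gene lists were chosen with earlier results of these data known.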

Additional observations from a re-analysis of the deposited data

How the results depend on the processing

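The 13 member calls kept their direction in all 220 alternative and left-out results, and 34 of these no longer called them. Results at an adjusted p of 0.1 reused the main fit, so they could neither reverse nor lose a call. Fits without a library of the third group kept both compared groups whole. Outside left-out libraries a call was lost for Fzd7 in stressed saline against non-stressed saline with no filter (edgeR adjusted p = 0.0579). The same held for Rspo3 in SHNK against stressed saline under the replicate block (0.0509). DESeq2 gave no adjusted p for Wnt2 in SHNK against stressed saline. Counts of members called moved by over 1.5 times in stressed saline against non-stressed saline with DESeq2 (6) and at an adjusted p of 0.1 (5). They also did so in SHNK against non-stressed saline with the same settings (3 and 2). Calls over all genes moved too, to 472 and 370 from 213 in the first comparison and to 994 and 520 from 1 in the second. Counts of the other pathway genes called moved in stressed saline against non-stressed saline with no filter (0) and a filter of 1 CPM in 3 libraries (1). The replicate block (0) and a fit of only the 2 compared groups (1) moved them too. Calls over all genes in these settings were 188, 243, 177 and 207, in that order. Their counts also moved with DESeq2 and at 0.1 in SHNK against stressed saline (13 and 13), and likewise for SHNK against non-stressed saline (7 and 4). Calls over all genes were 2005 and 2184 in the former, against 1167, and 994 and 520 in the latter. Over the fits that left out 1 library, members called ran from 2 to 4 (other pathway genes 0 to 2) in stressed saline against non-stressed saline. They ran from 2 to 10 (0 to 10) in SHNK against stressed saline and from 0 to 2 (0 to 5) in SHNK against non-stressed saline. For any difference they ran from 3 to 10. Calls over all genes in these fits ran from 40 to 306, 176 to 1385, 0 to 749 and 187 to 1492, in the same order. The cause was not tested.

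Uncalled log2 fold changes changed sign. Rspo3 in SHNK against non-stressed saline was 0.0057 with upper-quartile scaling, 0.0027 with the 1 CPM filter and -0.068 to 0.10 over left-out libraries. Fzd7 in that comparison was -0.017 under the replicate block and -0.64 to 0.34 over left-out libraries, and Lrp6 was -0.0598 to 0.17. Over left-out libraries Fzd3 was -0.0624 to 0.0711 and Axin2 -0.27 to 0.25 in SHNK against stressed saline, and in stressed saline against non-stressed saline Fzd3 was -0.0142 to 0.14, Rspo1 -0.011 to 0.11 and Wnt7a -0.25 to 0.0262.

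With the replicate number as a block, 9 members were called in SHNK against stressed saline, 3 in stressed saline against non-stressed saline, 0 in SHNK against non-stressed saline and 6 for any difference, against 10, 3, 0 and 9 without it. Calls over all genes were 878, 177, 6 and 685 with the block, against 1167, 213, 1 and 888 without it. Same-numbered libraries correlated at -0.10 to 0.11 and 1 of 9 pairs was over 0.1. Of 18 library and group pairings, 7 were closest to their own number. With so few libraries, these values cannot tell whether same-numbered libraries share more than a number.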

Other observations

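Some members are neighbours in the genome. Wnt10a and Wnt6 lie on chromosome 1 in the same orientation, 6.19 kb apart, and Wnt10a was at 16.9, 17.0 and 18.0 CPM in SHNK, 16.5, 14.8 and 15.6 CPM in stressed saline and 18.8, 21.0 and 20.2 CPM in non-stressed saline libraries. Wnt6 was at 1.18, 1.13 and 0.923 CPM in SHNK, 1.68, 1.52 and 1.83 CPM in stressed saline and 1.34, 1.85 and 1.57 CPM in non-stressed saline libraries. Both had SHNK libraries without overlap with stressed saline libraries, higher for Wnt10a and lower for Wnt6, as had 30.4% of all tested genes in either direction. Neither passed the threshold (edgeR adjusted p = 0.414 and 0.130). Wnt3 and Wnt9b lie 24.3 kb apart on chromosome 11 in opposite orientation. Their log2 fold changes in SHNK against stressed saline were 0.20 ± 0.08 and 0.52 ± 0.22, and neither was called (edgeR adjusted p = 0.140 and 0.177).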
